A study of Mus musculus with 12 samples.

Results

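The data described here are the accessible regions of mouse chromosome 1 in HoxB8 cells, mapped by ATAC-seq. Joining the peaks of 12 libraries wherever they overlapped by 1 bp or more gave 56682 regions. A peak in 2 or more libraries was found in 37113 of them, and the 3224 of these on chromosome 1 are the members. The libraries fell into 4 groups of 3. The sgB2/T618I group carried a CRISPR guide against Asxl1, made to truncate the gene, and overexpressed the CSF3R T618I mutant from the pMICH vector. The sgB2/Empty group carried the same Asxl1 guide with the empty pMICH vector, the sgNT/T618I group a non-targeting guide with CSF3R T618I, and the sgNT/Empty group a non-targeting guide with the empty vector. All groups share the immortalised HoxB8 bone marrow line, growth in stem cell factor and estrogen, and estrogen removal for 48 h before collection. The labels do not say whether the cells of a guide were 1 clone or a pool, nor whether replicates were separate cultures, so p-values measure the spread between these libraries, which may be technical.

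In ATAC-seq a transposase cuts DNA that is not covered by nucleosomes, and a peak is a stretch with more cuts than its surroundings. Promoters of active genes are usually open in many cell types, whereas distal peaks, often enhancers, differ more between cell states. Asxl1 is a chromatin regulator linked to Polycomb repression, and its truncation is common in myeloid neoplasms. CSF3R is the receptor for granulocyte colony-stimulating factor, and the T618I change activates it without ligand. A peak list records how much accessible DNA passed a threshold in a population, so the number of copies of a chromosome per cell, the share of cells that hold a region open and the openness of each copy cannot be told apart in these data.

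Promoters of 4 members are shown as examples of changes in regions at a gene start. Gbx2 lies in a region with a peak in all 6 sgB2 libraries and in no sgNT library, though its peaks were weak. Sh3bp4 had the smallest p for strength in sgB2 against sgNT cells, and Nab1 lies in a region lost with T618I in sgB2 cells. Dock10 lies in a region that weakened with T618I in sgB2 cells and was also lower with T618I in sgNT cells. The printed Dock10 window itself does not show that pattern. Each is the RefSeq window of the GRCm38.p6 build (the mm10 coordinates) running 250 bases before to 50 bases after the gene start, written 5′ to 3′ along the gene, with matches of the searched motifs in capitals.
Gbx2 promoter, chr1:89931127-89931426, minus strand: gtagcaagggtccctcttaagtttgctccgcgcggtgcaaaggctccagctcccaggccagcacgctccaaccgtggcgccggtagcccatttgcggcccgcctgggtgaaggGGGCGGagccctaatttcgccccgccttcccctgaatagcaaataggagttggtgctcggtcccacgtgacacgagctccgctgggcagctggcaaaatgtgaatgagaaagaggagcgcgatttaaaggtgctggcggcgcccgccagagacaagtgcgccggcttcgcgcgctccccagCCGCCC
Sh3bp4 promoter, chr1:89070165-89070464, plus strand: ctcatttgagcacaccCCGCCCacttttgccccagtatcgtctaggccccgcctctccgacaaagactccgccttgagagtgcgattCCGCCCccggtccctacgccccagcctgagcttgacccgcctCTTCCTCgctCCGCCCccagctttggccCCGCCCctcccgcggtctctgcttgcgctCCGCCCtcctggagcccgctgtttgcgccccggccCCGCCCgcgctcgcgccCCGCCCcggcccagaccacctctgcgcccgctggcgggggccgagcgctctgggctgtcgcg
Nab1 promoter, chr1:52500399-52500698, minus strand: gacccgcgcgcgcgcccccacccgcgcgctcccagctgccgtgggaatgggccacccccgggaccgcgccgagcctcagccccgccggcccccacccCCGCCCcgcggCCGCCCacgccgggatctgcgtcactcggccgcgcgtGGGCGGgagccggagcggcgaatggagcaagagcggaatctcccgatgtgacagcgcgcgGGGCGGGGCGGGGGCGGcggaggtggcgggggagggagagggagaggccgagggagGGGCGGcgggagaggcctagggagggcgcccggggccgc
Dock10 promoter, chr1:80758504-80758803, minus strand: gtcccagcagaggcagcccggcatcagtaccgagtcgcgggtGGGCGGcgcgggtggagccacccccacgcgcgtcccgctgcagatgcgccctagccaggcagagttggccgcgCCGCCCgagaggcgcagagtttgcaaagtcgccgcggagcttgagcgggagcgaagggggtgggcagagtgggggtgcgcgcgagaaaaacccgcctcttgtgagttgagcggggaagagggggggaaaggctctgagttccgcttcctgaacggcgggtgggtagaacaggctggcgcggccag
All 4 windows are rich in G and C, with 64.7% in Gbx2, 73.3% in Sh3bp4, 81.7% in Nab1 and 70% in Dock10, against a median of 52% over the promoters of chromosome 1 and 53% over all promoters. The motifs were searched on both strands as the PU.1 core GAGGAAG, the C/EBP site TTGCNNAA, the AP-1 site TGANTCA, the RUNX core TGTGGT, the ETS core CCGGAAG, the GC box GGGCGG and the CCAAT box. The capitals are GC boxes, 2 in Gbx2, 7 each in Nab1 and Sh3bp4 and 2 in Dock10, and 1 PU.1 match in Sh3bp4 (CTTCCTC, on the other strand). Adjoining GC boxes in Nab1 share bases. Of all 32619 promoter windows, 35.9% hold a GC box and 13.4% the PU.1 core, and on chromosome 1 the shares were 34.3% and 13.2%. None of the other 5 motifs matched these 4 windows, which says only that those letters are not in them. In the whole set of windows they matched 10.9% (C/EBP), 7.85% (AP-1), 16.6% (RUNX), 8.92% (ETS) and 37.6% (CCAAT).

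Counted over the libraries of both guides, chromosome 1 members were more often distal and less often shared than the 33889 regions of the other chromosomes. A peak in all 12 libraries was found at 875 members (27.1%) and at 36.8% of regions elsewhere, and exactly 2 libraries had a peak at 21.9% of members and 14.1% elsewhere. Of the members, 634 (19.7%) lay within 1 kb of an end of a protein-coding gene and 477 (14.8%) over 100 kb from one, compared with 28.5% and 8.10% elsewhere. Their median width was 600 bp, against 628 bp elsewhere. A RefSeq promoter window fell in 539 members, and 425 of these (78.8%) had a peak in all 12 libraries, against 16.8% of the members without a promoter.

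Libraries held 20293 to 32975 peaks with sgB2 and 18484 to 29699 with sgNT, and the shortest list, sgNT/Empty replicate 1, is the reason for repeating results on lists cut to equal length. The files give no read counts, so depth is unknown. The peak lists could not check the Asxl1 truncation. With sgB2 the coverage around Asxl1, on chromosome 2, changed by −0.00 on the log2 scale (limma, adjusted p = 0.998). This averages opposite directions: 3.62 ± 1.38 kb with sgB2/Empty and 2.69 ± 0.922 kb with sgNT/Empty, but 4.15 ± 0.790 kb with sgB2/T618I and 5.38 ± 0.321 kb with sgNT/T618I. Coverage around Asxl1 rose with T618I in sgNT cells (log2 0.92, limma, adjusted p = 0.0488). Of 7 neutrophil and promyelocyte genes, 4 had a peak in or within 1 kb of the gene in every library, and none was found there at Elane. The T cell genes Cd3e, Cd3g and Cd4 had no such peak in any library. Summed peak coverage around the neutrophil genes was 36.4 to 42.3 kb with sgB2 and 36.4 to 49.5 kb with sgNT, around the progenitor genes Kit and Cd34 3.78 to 5.32 kb and 3.16 to 4.46 kb in the same order, and around the B cell genes Pax5 and Ebf1 1.25 to 3.66 kb and 2.15 to 3.002 kb. Around the erythroid genes Gata1 and Klf1 it was 4.52 to 5.42 kb with sgB2 and 3.64 to 5.47 kb with sgNT. These ranges overlap between the guides. Among these marker genes Gata1 alone was called with sgB2: it rose, with 1.04 ± 0.139 kb in sgB2 libraries and 0.639 ± 0.190 kb in sgNT libraries (log2 0.45, limma, adjusted p = 0.0421), and the libraries of the guides overlapped. The part of cell composition in the results was not tested.

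Cells with the Asxl1 guide had a larger share of their peaks on chromosome 1 than cells with the non-targeting guide, with either vector. The share was 9.60, 10.5 and 9.60% in the sgB2/T618I libraries and 9.48, 11.2 and 10.0% in the sgB2/Empty libraries, against 6.84, 7.05 and 6.99% with sgNT/T618I and 6.67, 6.95 and 6.88% with sgNT/Empty. Every sgB2 library was above every sgNT library. The means were 10.1 ± 0.658% with sgB2 and 6.90 ± 0.134% with sgNT (SD, n = 6 each), a ratio of 1.46. The two-sided exact permutation p was 0.005, the smallest that the 400 arrangements within vectors can give, and the adjusted p over 40 chromosome tests was 0.02. The chromosome was chosen with this difference known, so this p is not independent evidence of it. The ratio was 1.50 in Empty cells (10.2% with sgB2 and 6.84% with sgNT) and 1.42 in T618I cells (9.89% and 6.96% in the same order).

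The other 19 chromosomes all had a lower share with sgB2, by 1.10 to 18.5%, with the X chromosome at the far end and a median of −3.44%. Shares of a library add up to a fixed total, so the rise of chromosome 1 by itself lowers the others. Their falls were thus in part fixed in advance. Groups did not overlap for 5 of these 19. In numbers, sgB2 libraries held 2579 ± 526 peaks on chromosome 1 (1924 to 3458) and sgNT libraries 1832 ± 309 (1233 to 2073), and these ranges overlap. By covered bases the chromosome took 9.25 ± 0.536% with sgB2 and 6.64 ± 0.151% with sgNT. When every list was cut to the strongest 18484 peaks, the share was 8.02% with sgB2 and 6.50% with sgNT, so the difference was 1.53 percentage points instead of 3.16, with the same exact permutation p of 0.005.

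**Figure D1:**
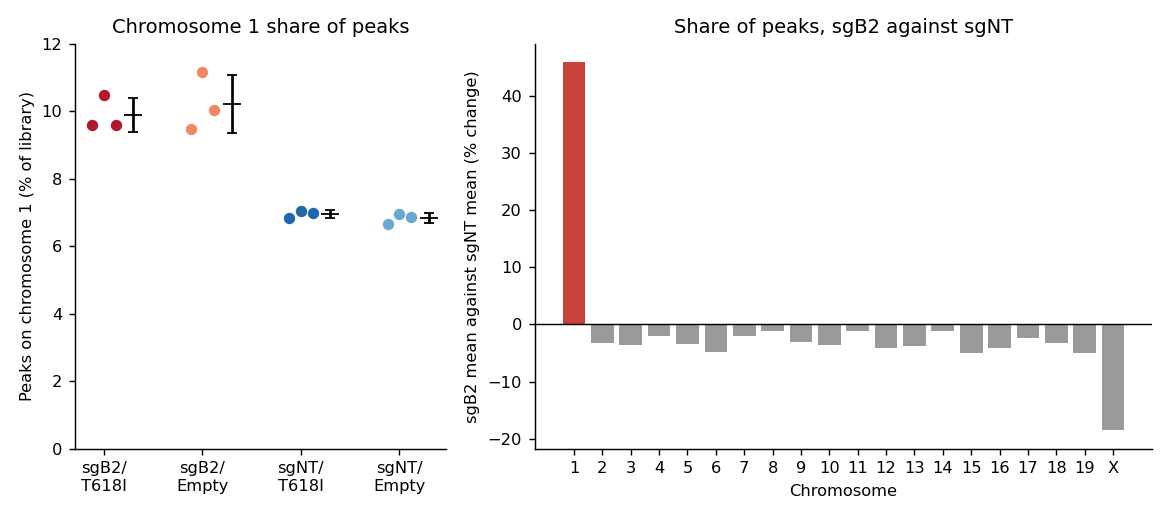
Percent of each library's peaks on chromosome 1 by group (left; points are libraries, bars mean ± SD, n = 3) and percent change of the mean share, sgB2 against sgNT, for each chromosome (right). The sgB2 libraries lie at 9.48 to 11.2% and the sgNT libraries at 6.67 to 7.05%, and chromosome 1 is the single chromosome above 0.

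The gain in share ran along the whole chromosome rather than sitting in one segment. Chromosome 1 was divided into 20 bins of 10 Mb, and the share of a library's peaks in each bin rose with sgB2 in 20 of 20 bins (limma, adjusted p at most 2.28e-05), with no overlap between guides in any of them. Over all 266 bins of the genome tested, 7.89% rose and 11.7% fell, and on other chromosomes 1 bin rose. As the shares of a library add up to a fixed total, part of the falls follows from the rise on chromosome 1. Folds ran between 1.29 in bin 10 (90 to 100 Mb) and 1.73 in bin 3 (20 to 30 Mb), with a median log2 change of 0.53. All 20 bins also rose within Empty cells and within T618I cells (7.52% of all bins rose in each, while 4.14% fell in Empty cells and 3.76% in T618I cells), and no bin had a guide effect that differed between vectors in limma (0.0% of all bins, with 1 of the 20 at an unadjusted p under 0.05). When each chromosome was centred on its own median, an alternative chosen after seeing the data, 2 bins stood higher, so the 20 calls rest on the shift shared by the chromosome.

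Bin 4 (30 to 40 Mb) had the smallest p. It held 0.712, 0.728 and 0.701% of peaks with sgB2/T618I and 0.690, 0.768 and 0.726% with sgB2/Empty, against 0.458, 0.498 and 0.526% with sgNT/T618I and 0.460, 0.482 and 0.488% with sgNT/Empty. The log2 change was 0.56 ± 0.04 (SE; limma, adjusted p = 3.84e-12). The lowest sgB2 value, 0.690%, was above the highest sgNT value, 0.526%. Bin 14 (130 to 140 Mb) reached 0.907 ± 0.038% with sgB2 and 0.656 ± 0.027% with sgNT, with a log2 change of 0.46 ± 0.03. Bins 6 and 16 both changed by 0.53 ± 0.04, to 0.628 ± 0.036% and 0.699 ± 0.046% with sgB2, against 0.432 ± 0.025% and 0.480 ± 0.016% with sgNT. Bin 3, with the largest fold, held 0.197 to 0.297% of peaks with sgB2 and 0.115 to 0.150% with sgNT. Bins with few peaks and few genes had the larger changes: across the 20 bins Spearman's rho of the log2 change was −0.735 with the sgNT share and −0.697 with the number of protein-coding genes (14 to 143). Neighbouring bins share libraries, so this is a description without a test. The sgNT share is also the reference of the log2 change, so spread in that share by itself pulls the first rho in the negative direction.

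**Figure D2:**
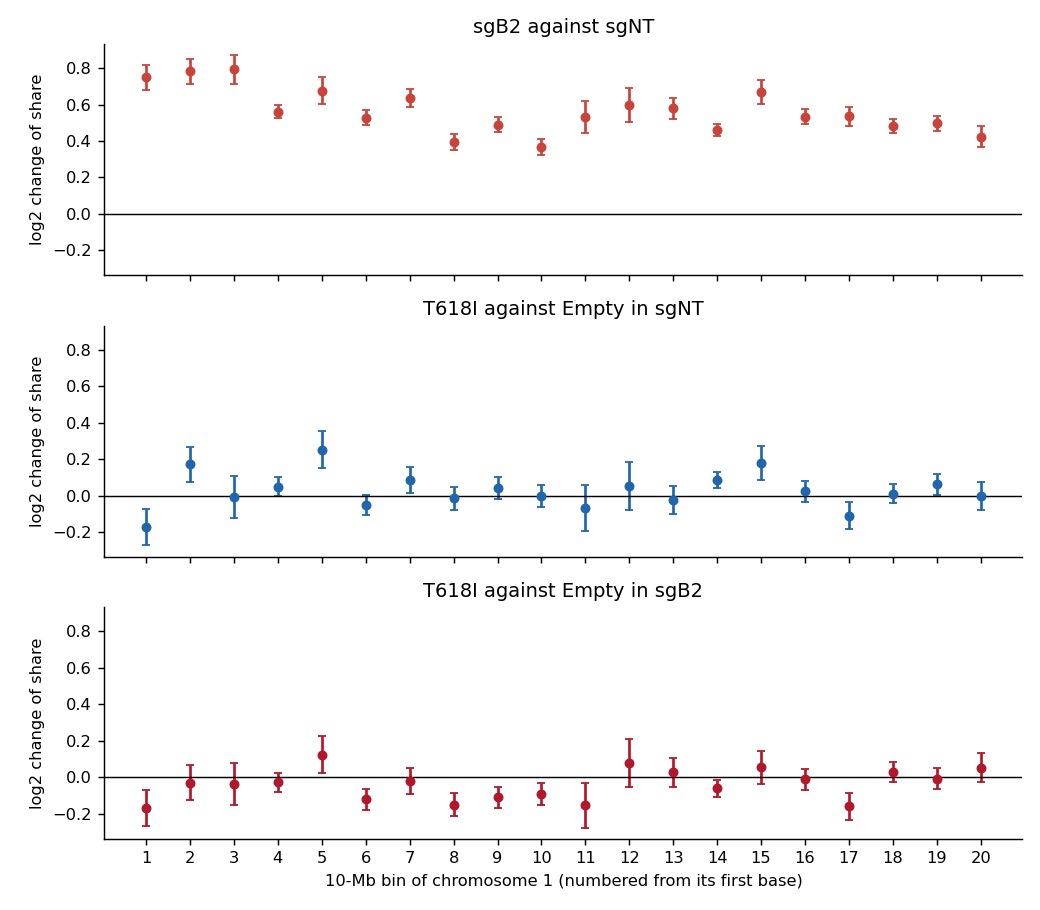
Change in the share of peaks (log2, limma estimate ± SE) in the 20 bins of chromosome 1, for sgB2 against sgNT and for T618I against Empty within each guide. The guide effect lies between 0.37 and 0.79 in every bin, whereas the T618I effects lie on both sides of 0.

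The excess on chromosome 1 was largest among weak peaks, narrow peaks and peaks far from gene ends, with a further excess among the strongest peaks. Each library's peaks were divided into 5 strength classes of equal size by the rank of the deposited −log10 p. In class 1, the weakest, chromosome 1 took 17.8 ± 2.91% with sgB2 and 8.36 ± 0.465% with sgNT, a ratio of 2.14. The ratio was 1.29 in class 2, 1.18 in class 3 and 1.06 in class 4, where the guides overlapped in classes 3 and 4. In class 5, the strongest, it was 1.45 again (8.86 ± 0.472% with sgB2 and 6.12 ± 0.170% with sgNT, no overlap). The other chromosomes' ratios in that class ran between 0.940 and 1.02. By width, the ratio was 1.61 among the narrowest of 3 classes (12.5 ± 0.928% with sgB2 and 7.77 ± 0.193% with sgNT), 1.44 among the middle ones and 1.30 among the widest.

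The ratio also grew with distance to a gene end. Within 1 kb of an end, chromosome 1 took 6.18 ± 0.108% of peaks with sgB2 and 5.82 ± 0.0521% with sgNT, a ratio of 1.06 that still left no overlap between the guides. The ratio was 1.50 at 1 to 10 kb (9.15 ± 0.331% with sgB2 and 6.09 ± 0.331% with sgNT). It was 1.64 at 10 to 100 kb and 1.75 over 100 kb, where chromosome 1 took 19.3 ± 2.08% with sgB2 and 11.0 ± 1.20% with sgNT. Seen within the chromosome, 22.0 ± 3.28% of its peaks lay within 1 kb of a gene end with sgB2 and 29.9 ± 4.77% with sgNT. Median peak width on the chromosome was 365 ± 25 bp in sgB2 libraries and 440 ± 31.0 bp in sgNT libraries. Relative to the other chromosomes' median in the same library these widths differed by −72.3 ± 7.22 bp with sgB2 and −35.3 ± 7.50 bp with sgNT.

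**Figure D3:**
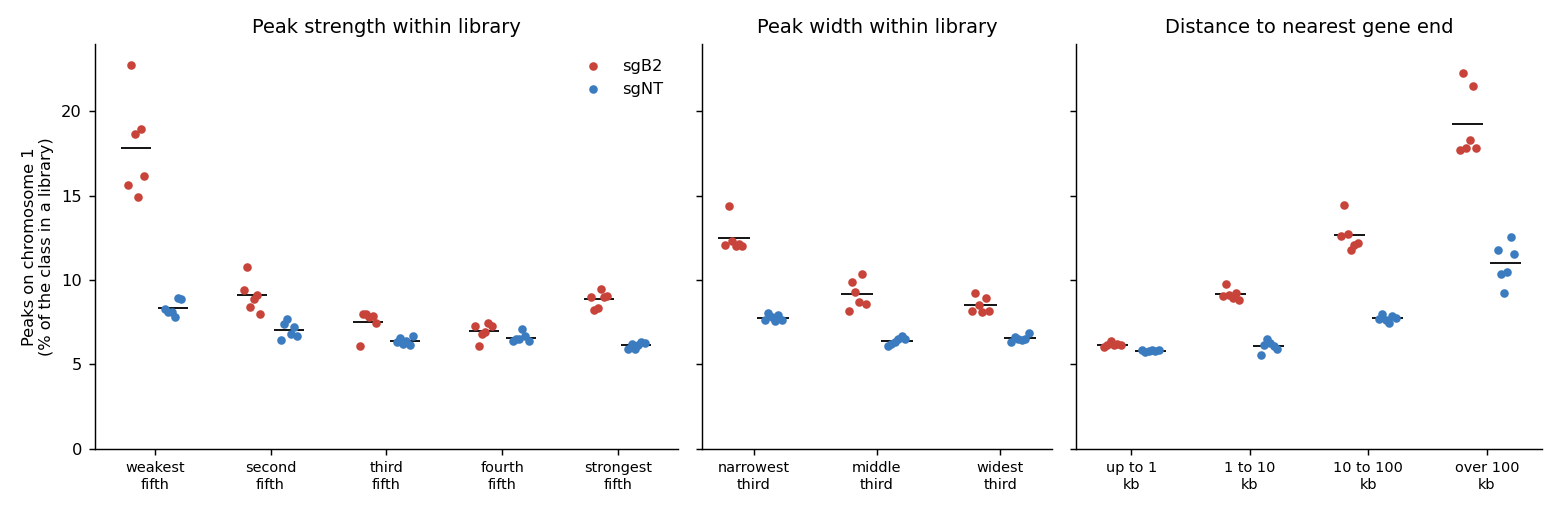
Percent of the peaks of a class that lie on chromosome 1 in each library, by strength class, width class and distance to the nearest gene end (points are libraries, bars the mean of 6). With sgB2 the share reaches 17.8% in the weakest class and 19.3% over 100 kb from genes, against 8.36% and 11.0% with sgNT.

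Promoters were the exception to the large excess. A peak fell in 32.2 ± 1.17% of the 2014 promoter windows of chromosome 1 with sgB2 and in 31.9 ± 1.64% with sgNT, and these ranges overlap. Set against the other chromosomes of the same library, the ratio was 1.01 ± 0.00418 (1.01 to 1.02) with sgB2 and 0.978 ± 0.0148 (0.955 to 0.997) with sgNT, with no overlap. More sgB2 than sgNT libraries had a peak at 105 windows, and more sgNT than sgB2 libraries at 71, whereas elsewhere the counts were 872 and 1604. Of the windows, 550 had a peak in all 12 libraries and 1256 in none.

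Presence of a peak followed the same lines. Of the 3224 members, 1330 (41.3%) had a peak in more sgB2 than sgNT libraries and 518 (16.1%) in more sgNT libraries, compared with 17% and 31.6% of regions elsewhere. Peaks in sgB2 libraries alone were found at 548 members (17%, against 4.40% elsewhere), of which 376 had them in 2 libraries. Their median width was 408 bp, and 4.20% lay within 1 kb of a gene end. Regions seen in 1 library alone, which are not members, averaged 549 per sgB2 library and 102 per sgNT library on chromosome 1. They made up 30.7 ± 4.72% of a library's own regions with sgB2 and 7.75 ± 1.28% with sgNT.

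A peak in all 6 sgB2 libraries and in no sgNT library was found at 12 members, and the opposite at 1. Over all 37113 regions 0.0754% were gained in this way and 0.181% lost, so chromosome 1 held 42.9% of the regions gained. No region passed the exact permutation test after adjustment, whose smallest unadjusted p is 0.005. At an unadjusted p under 0.05, 33 members were higher (1.02%, against 0.224% elsewhere) and 3 lower. By strength the leading gained regions lay in Thsd7b (chr1:129651449-129651961), near Rgs1, a regulator of G-protein signalling (chr1:144318368-144318648), near Fhl2, a LIM-domain cofactor (chr1:43241287-43241690), in Trip12, a ubiquitin ligase (chr1:84740002-84740518), near Ikzf2, which encodes the zinc-finger factor Helios (chr1:69507429-69508068), and in Nck2, an adaptor of receptor tyrosine kinases (chr1:43562436-43562739). The Thsd7b region had 379, 408 and 322 bp under peaks with sgB2/T618I and 263, 333 and 340 bp with sgB2/Empty, against 0 bp in all 6 sgNT libraries. Of the 12, 9 lay over 10 kb from a gene end and 1 within 1 kb. That one covers the start of Gbx2, a homeobox gene, and was named after its values were seen. The Gbx2 peaks were weak, with a mean strength percentile of 13.7 in the libraries that had them, against 56.4 for the Thsd7b region. The Gbx2 region was 1363 bp wide. It had 464, 767 and 986 bp under peaks with sgB2/T618I and 516, 229 and 331 bp with sgB2/Empty, and in the printed Gbx2 window itself 4 of 6 sgB2 libraries had a peak. The lost region lay 635 bp from an end of Slc40a1, the iron exporter ferroportin (chr1:45924493-45925897), with 0 bp in all sgB2 libraries against 1231, 1287 and 1257 bp with sgNT/T618I and 237, 1107 and 820 bp with sgNT/Empty. With stricter peaks 5 members were gained and 1 lost, and with a peak required to cover 50% of the region 5 were gained and 2 lost.

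Regions open in every library were stronger with sgB2 on chromosome 1 as a whole. Strength here is the percentile of a region's highest −log10 p among the 13356 regions found in all 12 libraries, so it compares ranks within a library and not heights. The median percentile of the 875 chromosome 1 regions was 64.6, 64.7 and 61.8 with sgB2/T618I and 60.3, 58.7 and 59.8 with sgB2/Empty, against 47.5, 48.8 and 46.6 with sgNT/T618I and 46.6, 44.9 and 44.8 with sgNT/Empty. The guides did not overlap. With sgB2 279 of the 875 (31.9%) rose and 4 fell (limma, adjusted p under 0.05), and over all regions tested 4.48% rose and 4.01% fell. The median change was 10.4 points on chromosome 1 and −0.64 points elsewhere, and 784 of the 875 (89.6%) had a positive value.

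By distance, the share of these regions that rose was highest at gene ends. Of 459 regions within 1 kb of an end, 185 (40.3%) rose, compared with 22.3% at 1 to 10 kb, 22.7% at 10 to 100 kb and 23.1% over 100 kb. The median changes were 11.4, 8.45, 8.68 and 9.03 points in the same order of distance. Elsewhere in the genome the shares were 2.15, 2.67, 3.10 and 5.44% in the same order of distance. The share that rose on chromosome 1 also grew with the mean strength of a region, with 12.2% in the class below the percentile of 20 and 55.6% in the class above 80, and the part of strength in the shares by distance was not tested. These regions were also wider relative to the rest of the genome: the chromosome 1 median was 37.2 ± 5.95 bp above the others with sgB2 and 10.3 ± 11.7 bp below them with sgNT.

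Among single regions, the promoter of Sh3bp4, an adaptor of receptor endocytosis, had the smallest p (chr1:89069586-89070612). Its percentile was 66.9, 61.9 and 53.1 with sgB2/T618I and 75.1, 87.2 and 78.4 with sgB2/Empty, against 8.22, 2.63 and 7.75 with sgNT/T618I and 7.76, 23.3 and 3.62 with sgNT/Empty. Each sgB2 library was above all sgNT libraries. The difference was 61.5 ± 5.35 points (SE; limma, adjusted p = 1.385e-05). The same region widened to 736 ± 133 bp with sgB2, against 358 ± 161 bp with sgNT (log2 1.27, adjusted p = 0.0179). In order of p, a region near Aff3, a nuclear factor of the AF4 family, followed (chr1:38694043-38695087, 89.7 with sgB2 and 39.8 with sgNT), then the promoter of Sned1, an extracellular matrix gene (chr1:93235355-93236739, 47.3 and 10.1 in the same order), and a site within Pnkd (chr1:74331392-74332822, 95.8 and 73.0). The 4 regions that fell lay near Acbd3, a Golgi scaffold (22.8 with sgB2 and 70.1 with sgNT, adjusted p = 0.000501), near Tbc1d8 (4.77 and 37.6), at the start of Atp1b1, the beta subunit of the sodium pump (9.50 and 25.5), and near Gorab (11.1 and 26.8). In width 3 of the 875 were called wider and 0 narrower by limma (0.0973% and 0.217% of all regions, with 142 wider and 10 narrower at an unadjusted p under 0.05): Sh3bp4, a site beside Il18r1 (1091 ± 86.0 bp with sgB2 and 889 ± 238 bp with sgNT) and Tmem177 (403 ± 31.5 bp and 298 ± 43.1 bp). The Il18r1 site parted by guide in Empty cells alone, with 1054 ± 76.5 bp (sgB2) and 692 ± 151 bp (sgNT). In T618I cells it had 1129 ± 91.7 and 1086 ± 45.5 bp in the same order, with overlap. The 3 width calls are fragile, with 0 or 1 left without sgB2/Empty replicate 1, sgB2/T618I replicate 1, sgNT/Empty replicate 2 or any of the 3 sgNT/T618I replicates. Without centring of the libraries 1 was left.

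**Figure D4:**
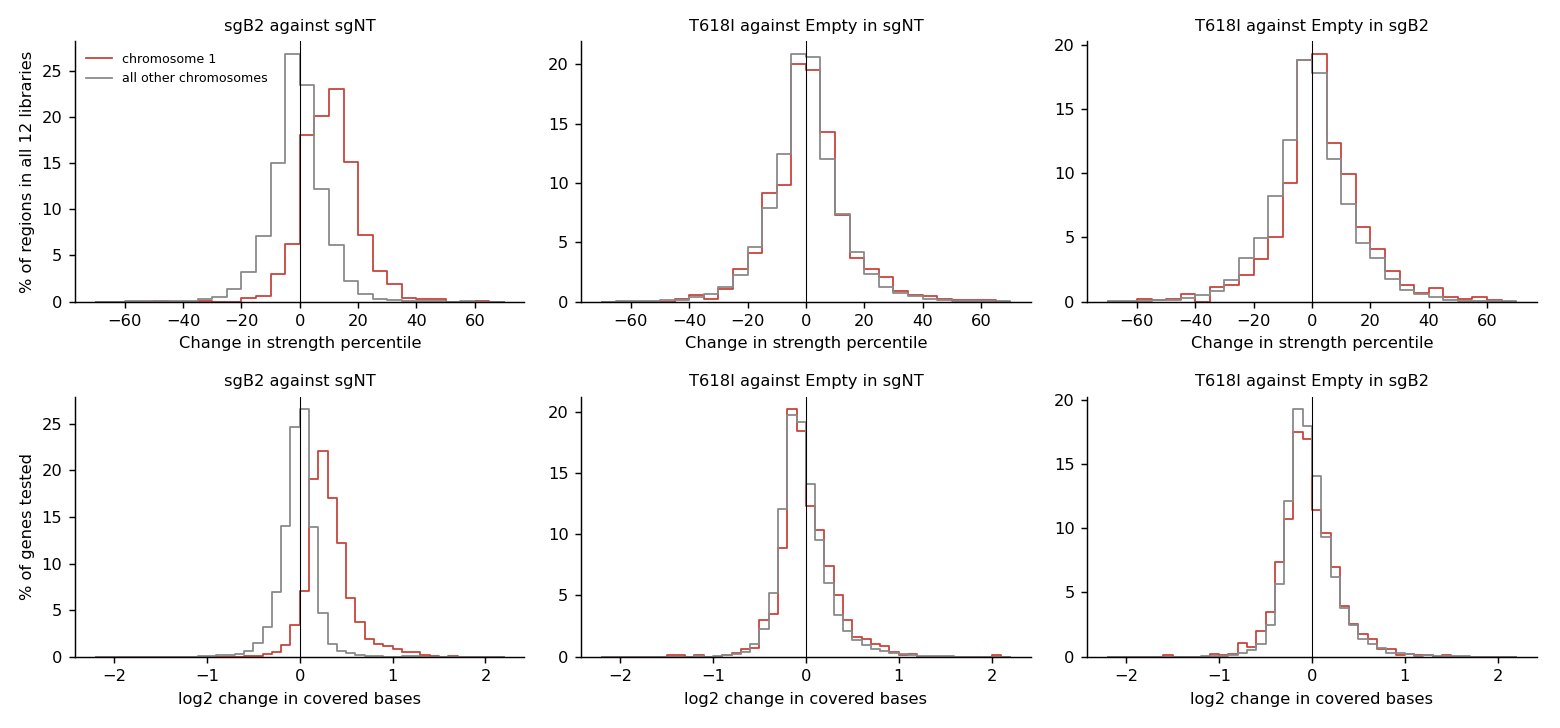
Distribution of changes for chromosome 1 (red) and all other chromosomes (grey): strength percentile of regions in all 12 libraries (top, percent of regions) and log2 change of peak-covered bases around genes (bottom, percent of genes). For sgB2 against sgNT the chromosome 1 curves lie right of the others, with medians of 10.4 points and 0.28, and for T618I the curves nearly coincide.

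Around genes, peak-covered bases were summed over the gene and 50 kb to each side, scaled to equal total coverage and fitted as log2(bases + 500), a scale that understates changes of genes with little coverage. Of 1183 protein-coding genes on chromosome 1, 945 had enough coverage to be tested. With sgB2, 154 (16.3%) rose and 0 fell (limma, adjusted p under 0.05), whereas over all 15286 genes 1.52% rose and 1.3% fell. At an unadjusted p under 0.05, 560 chromosome 1 genes were higher and 1 lower. The 154 genes make up 100 loci, since neighbouring windows share peaks. The median change was 0.28 on chromosome 1 and −0.01 elsewhere. With each chromosome scaled to its own total, an alternative chosen after seeing the data, 14 genes rose and 19 fell of 936, and their median became −0.086. Without any scaling 5 genes were called. Leaving out 1 library gave 86 to 164, with 86, 92 and 93 without sgNT/T618I replicates 2, 1 and 3, 94 without sgB2/T618I replicate 1 and 100 without sgB2/Empty replicate 2.

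The largest rises were at genes with little coverage in sgNT cells. All 8 named here averaged under 500 bp in sgNT libraries, so they passed the filter of a mean of 500 bp only through sgB2 libraries. That filter favours a rise at such genes, so their direction, p and lack of overlap are not independent support. Fmn2, a formin that nucleates actin filaments (174501752 to 174822729), had 0.770, 1.88 and 0.422 scaled kb with sgB2/T618I and 2.19, 1.70 and 1.59 with sgB2/Empty, against 0, 0 and 0.155 with sgNT/T618I and 0, 0.393 and 0 with sgNT/Empty. Every sgB2 library was above every sgNT library (log2 change 1.65 ± 0.21, adjusted p = 0.00103). Rgs13, a regulator of G-protein signalling, averaged 1.25 ± 0.588 kb with sgB2 and 0.171 ± 0.265 kb with sgNT (1.40 ± 0.18). Nckap5 averaged 1.92 ± 0.828 and 0.487 ± 0.290 kb in the same order (1.30 ± 0.21). The synaptotagmin gene Syt14 (1.29 ± 0.23), the ankyrin-repeat gene Asb18 beside Gbx2 (1.27 ± 0.16) and the zinc transporter gene Tmem163 (1.23 ± 0.20) also showed no overlap. Pld5 (1.33 ± 0.32) and Gli2, a transcription factor of hedgehog signalling (1.24 ± 0.25), rose with overlapping groups, and Pld5 lost its call in 14 of 19 alternatives and left-out libraries. Of these 8, Fmn2, Rgs13, Syt14, Asb18, Gli2, Tmem163 and Nckap5 were also among the 14 genes that rose with chromosome 1 scaled to its own total. That scale uses the same values of the same genes, so it is no independent support either. The 19 that fell on that scale included Nab1, a corepressor of EGR factors (−0.84), Eef1b2, a translation elongation factor (−0.61), and Atp1b1 (−0.56), which had no such call relative to the whole genome.

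The genes that rose belonged to families of differing function. The counts per list stand beside the 16.3% of all 945 tested chromosome 1 genes that rose. Members of a list often share windows, and no list was tested against that share. The 12 lists held 149 chromosome 1 genes, of which 120 were tested, and no member fell with sgB2 in limma, also at an unadjusted p under 0.05. Among regulators of G-protein signalling 4 of 8 rose: Rgs13, Rgs1 (1.13), Rgs8 (1.02) and Rgs5 (0.54), of which Rgs1 and Rgs13 lie in overlapping windows. Rgs13, Rgs1 and Rgs8 passed the coverage filter only through their sgB2 libraries. Rgs1 had 1.11, 1.03 and 1.45 kb with sgB2/T618I and 1.18, 0.425 and 0.805 kb with sgB2/Empty, against 0.164, 0 and 0.692 kb with sgNT/T618I and 0, 0.176 and 0.171 kb with sgNT/Empty. Of 19 chromatin, splicing and survival genes altered in cancer 6 rose, among them Mdm4, an inhibitor of p53 (0.56, adjusted p = 0.00164), the methyltransferase gene Smyd3 (0.46), Idh1 (0.39) and the demethylase gene Kdm5b (0.48). Of 17 transcription factors 3 rose: Elk4 (0.64), Ikzf2 (0.76) and Klf7 (0.35). Both Idh1 and Klf7 turned to a value just below 0 on the chromosome's own scale (−0.035 and −0.063), and Klf7 lost its call in 13 of 21 alternatives and left-out libraries.

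Among immune families, 2 of 6 IL-1 and IL-18 receptor genes rose (Il1rl1 0.49, Il18r1 0.50), which are 1 locus. This count and those that follow also stand beside the 16.3% of tested chromosome 1 genes that rose. In the SLAM family 2 of 8 rose (Slamf1 0.60, Cd84 0.55), in the interferon-inducible p200 family 2 of 7 (one of them Ifi211, 0.68) and among Fc receptors 1 of 6 (Fcrlb 0.42, which was −0.000880 on the chromosome's own scale). Of 7 lymphoid and erythroid genes 3 rose: Cd247, the T cell receptor zeta chain (0.51), Zap70 (1.08) and Cd28 (1.06), while the T cell genes off this chromosome, Cd3e, Cd3g and Cd4, had values of −0.15, −0.02 and −0.02. Several of these calls depended on the processing or on single libraries: Zap70 lost its call in 14 of 18 alternatives and left-out libraries in which it was tested, Cd28 in 13 of 18, Cd84 in 14 of 21, Ifi211 in 11 of 21 and Fcrlb in 17 of 21. Of 5 proteoglycan and chitinase-like genes Fmod rose (0.41), a call lost in 14 of 20. No gene passed among 3 chemokine receptors, 17 phagocyte genes and 17 housekeeping genes in limma, with 0, 8 and 10 of them higher at an unadjusted p under 0.05. The housekeeping median was 0.26, beside the 0.28 of all chromosome 1 genes. The list medians ran up to 0.52 in the G-protein regulators, with 0.05 in the chemokine receptors as the lowest (Cxcr4 had 0.05 and Cxcr2 −0.01).

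No difference in the share of chromosome 1 with CSF3R T618I was detectable with these libraries. The share was 6.96 ± 0.106% with T618I and 6.84 ± 0.147% with Empty in sgNT cells (n = 3 each; exact permutation p = 0.3), and 9.89 ± 0.513% with T618I and 10.2 ± 0.857% with Empty in sgB2 cells (exact permutation p = 0.7). The smallest p that 3 against 3 libraries allow is 0.1, so these tests cannot show a difference at 0.05, and in sgB2 cells the sign turned without sgB2/Empty replicate 2 (0.132 percentage points). No bin of the 20 passed in either guide by limma (background 0.0% in both directions in sgNT cells, 0.376% higher and 0.0% lower in sgB2 cells). At an unadjusted p under 0.05 there was 1 bin in sgNT cells and 3 in sgB2 cells.

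By presence, peaks were gained and lost with T618I at single regions of the chromosome, but no region passed a test of presence. In the exact permutation test within guides the smallest adjusted p was 0.649, and 69 members had an unadjusted p under 0.05. In sgNT cells 74 members were gained with T618I, with a peak in all 3 T618I libraries and no Empty library, and 13 were lost (3.24% and 0.55% of all regions). In sgB2 cells 118 were gained and 39 lost (3.24% and 0.911% of all regions). As shares of the members, 2.3% were gained in sgNT cells and 3.66% in sgB2 cells, against 3.33% and 3.20% of regions elsewhere. Lost were 0.403% of the members in sgNT cells and 1.21% in sgB2 cells, against 0.564% and 0.882% elsewhere. The 2 comparisons share no library, and 12 gained members were common to both, which is 16.2% of those in sgNT cells and 10.2% of those in sgB2 cells. Lost members in common numbered 3. These counts depend on single libraries: without sgNT/Empty replicate 1 or 3 or sgNT/T618I replicate 1 or 2 the sgNT total of 87 became 171, 156, 144 and 147, and without sgB2/Empty replicate 1 or 3 or sgB2/T618I replicate 1 or 3 the sgB2 total of 157 became 241, 247, 239 and 277.

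Gained in both guides was a region far from genes (chr1:142893505-142894496), 708780 bp from the nearest protein-coding gene end, that of Cdc73. Others gained in both lay near H3f3a, which encodes histone H3.3 (chr1:180829841-180830115), and in Hecw2, a ubiquitin ligase (chr1:53824877-53825381). The region far from genes had 265, 988 and 265 bp under peaks with sgB2/T618I and 0 bp in all sgB2/Empty libraries. It had 295, 393 and 231 bp with sgNT/T618I and 0 bp in all sgNT/Empty libraries. A region in Nrp2, a semaphorin co-receptor (chr1:62760103-62760440), had 286, 269 and 306 bp with sgNT/T618I and none in the other 9 libraries. In sgB2 cells a region at Cxcr2, the chemokine receptor of neutrophils (chr1:74155347-74156672), had 417, 427 and 453 bp with T618I against 0 bp with Empty, and in sgNT cells 1209, 507 and 478 bp with T618I against 0, 0 and 1118 bp with Empty. A site in Bcl2, the survival gene (chr1:106581835-106582159), was also gained in sgB2 cells. Lost in both guides was a region at Inpp5d, the lipid phosphatase SHIP1 (chr1:87640356-87640759), with 0 bp in all T618I libraries against 307, 349 and 342 bp with sgB2/Empty and 264, 296 and 377 bp with sgNT/Empty.

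The Nab1 promoter printed above lay in a member lost with T618I in sgB2 cells alone (chr1:52499840-52500984). It had 0 bp in the 3 sgB2/T618I libraries against 420, 288 and 419 bp with sgB2/Empty, whereas in sgNT cells it had 1145, 935 and 911 bp with T618I and 703, 1014 and 955 bp with Empty. The difference between the guides in this loss was not tested. Peaks covered all 300 bases of the printed window in the 6 sgNT libraries, 189 to 283 in sgB2/Empty and 0 in sgB2/T618I.

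In regions open in every library, T618I raised 32 and lowered 25 of the 875 in sgNT cells (2.36% and 2.21% of all regions) and raised 59 and lowered 36 in sgB2 cells (4.78% and 3.93%). Without sgNT/T618I replicates 1, 2 or 3 the sgNT total of 57 became 35, 26 and 25, without sgNT/Empty replicate 2 it became 36, and without sgB2/Empty replicate 1 or 2 or sgB2/T618I replicate 2 the sgB2 total of 95 became 62, 54 and 60. A site in Uck2, a uridine-cytidine kinase (chr1:167242013-167242449), rose in both guides, by 55.7 points in sgB2 cells and by 44.1 points in sgNT cells. Its percentile was 65.3, 73.1 and 77.2 with sgB2/T618I against 13.2, 20.1 and 15.3 with sgB2/Empty, and 70.9, 81.5 and 67.7 with sgNT/T618I against 26.3, 36.2 and 25.3 with sgNT/Empty. Within each guide every T618I library was above every Empty library. Separate sites in Armc9 had the smallest p among the rises in each guide, with 53.4 points in sgB2 cells and 56.8 points in sgNT cells. In sgNT cells sites in A630001G21Rik (−35.3 points) and Wnt6 (−42.3 points) fell. In sgB2 cells a site near Cxcr2 (chr1:74166757-74167719) rose by 53.6 points. The Dock10 start, at a guanine nucleotide exchange factor gene, had percentiles of 3.07, 4.19 and 13.1 with sgB2/T618I against 80.0, 54.8 and 53.6 with sgB2/Empty (−56.0 points, adjusted p = 0.00134). In sgNT cells they were 7.69, 8.16 and 4.91 with T618I against 53.6, 36.5 and 17.6 with Empty, also without overlap. Peaks covered 71, 195 and 0 bases of the printed Dock10 window with sgB2/T618I and 0, 130 and 269 with sgB2/Empty. With sgNT/T618I they covered 300, 300 and 119 bases, and with sgNT/Empty 25, 200 and 119.

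One site in Acadl, a dehydrogenase of fatty acid oxidation (chr1:66841742-66842410), changed with T618I differently in the 2 guides. Its percentile was 68.3, 70.9 and 77.1 with sgB2/T618I against 13.2, 9.04 and 17.5 with sgB2/Empty, and 24.9, 22.7 and 37.0 with sgNT/T618I against 34.5, 26.3 and 44.7 with sgNT/Empty. The interaction was 65.8 ± 10.3 points (limma, adjusted p = 0.0384), the single one called among the 875, and 0.0449% of all regions had an interaction above 0 that was called.

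In width, T618I widened 5 and narrowed 1 of the 875 in sgNT cells (0.307% and 0.0524% of all regions) and widened 6 and narrowed 2 in sgB2 cells (0.584% and 0.202%). A site beside Map4k4, a kinase upstream of JNK (chr1:39895237-39897035), was 847, 1757 and 1769 bp wide with sgB2/T618I against 320, 300 and 289 bp with sgB2/Empty. In sgNT cells it was 956, 902 and 1005 bp wide with T618I against 281, 351 and 388 bp with Empty. The log2 changes were 2.00 ± 0.23 in sgB2 cells (SE; limma, adjusted p = 0.0037) and 1.32 ± 0.23 in sgNT cells (adjusted p = 0.0434), and the groups did not overlap in either guide. Width counts ran between 1 and 7 in sgNT cells and between 2 and 13 in sgB2 cells when 1 library was left out.

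Around genes, 12 rose and 4 fell with T618I in sgNT cells (1.16% and 0.327% of all genes) and 9 rose and 3 fell in sgB2 cells (1.21% and 0.393%). The sgNT total of 16 became 10, 7 and 10 without sgNT/T618I replicates 1, 2 and 3, and the sgB2 total of 12 became 2, 7, 3, 5 and 7 without sgB2/Empty replicates 1 and 2 and sgB2/T618I replicates 1, 2 and 3. Without sgNT/Empty replicate 1 the sgB2 total was 20, and without scaling of the libraries the totals were 4 and 0. The receptors for IL-1 family cytokines formed the group that moved most, in 1 locus: 4 of 6 rose in sgB2 cells (Il1r2, the decoy receptor, 1.07; Il1rl1, the IL-33 receptor, 0.71; Il18r1 0.76; Il1rl2, the IL-36 receptor, 0.87) and 3 of 6 in sgNT cells (Il1rl1 0.87, Il1rl2 1.05, Il18r1 0.63). In sgNT cells Il18r1 lost its call in 16 of 21 alternatives and left-out libraries. Il1rl1 had 5.29, 6.69 and 6.40 kb with sgB2/T618I against 3.59, 3.32 and 3.73 kb with sgB2/Empty, and 4.82, 4.45 and 4.16 kb with sgNT/T618I against 1.67, 2.65 and 2.45 kb with sgNT/Empty. Map4k4 rose in both guides, by 1.09 ± 0.14 in sgB2 cells and by 0.77 ± 0.14 in sgNT cells.

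Nrp2 rose in sgNT cells, with 3.17, 2.83 and 3.18 kb in T618I libraries against 0.469, 0 and 0.900 kb in Empty libraries (2.02 ± 0.30, adjusted p = 0.00231). The small leucine-rich proteoglycan genes Prelp and Optc, which are neighbours, fell in both guides. Prelp had 0.519, 0.704 and 0.993 kb with sgB2/T618I against 1.66, 1.82 and 2.22 kb with sgB2/Empty (−0.97 ± 0.18), and 0.837, 0.475 and 0.393 kb with sgNT/T618I against 2.18, 2.40 and 2.43 kb with sgNT/Empty (−1.43 ± 0.18). Of the other lists, Slamf1 rose in sgNT cells (0.87), Ctla4 rose in sgB2 cells (1.28) and Xrcc5, a DNA repair gene counted among the housekeeping genes, fell in sgB2 cells (−0.66). No member of the G-protein regulators, chromatin genes, transcription factors, phagocyte genes, p200 genes, Fc receptors or chemokine receptors passed with T618I in limma. At an unadjusted p under 0.05 each of these lists had 0 to 2 members per direction and guide. Beside these results, summed coverage around the B cell genes Pax5 and Ebf1 was 1.25 to 2.81 kb with T618I and 2.88 to 3.66 kb with Empty, and around the neutrophil genes 36.4 to 47.1 kb with T618I and 36.4 to 49.5 kb with Empty. Single marker genes moved in both directions. The neighbours S100a8 and S100a9, genes of neutrophil calcium-binding proteins, rose in sgB2 cells (0.96 and 1.03) and in sgNT cells (1.05 each). Csf3r also rose, by 0.50 in sgB2 cells and by 0.49 in sgNT cells (limma, adjusted p = 0.0402 and 0.04998). The T618I libraries overexpress a mutant of this same receptor from the vector, and the vector's part in the Csf3r rise was not tested. In sgB2 cells the granule genes Mpo (−0.54) and Prtn3 (−0.58), the progenitor gene Kit (−0.71) and Ebf1 (−1.16) fell, while in sgNT cells their values of −0.44, −0.16, −0.47 and −0.12 did not pass. Their part in the changes was not tested.

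**Figure D5:**
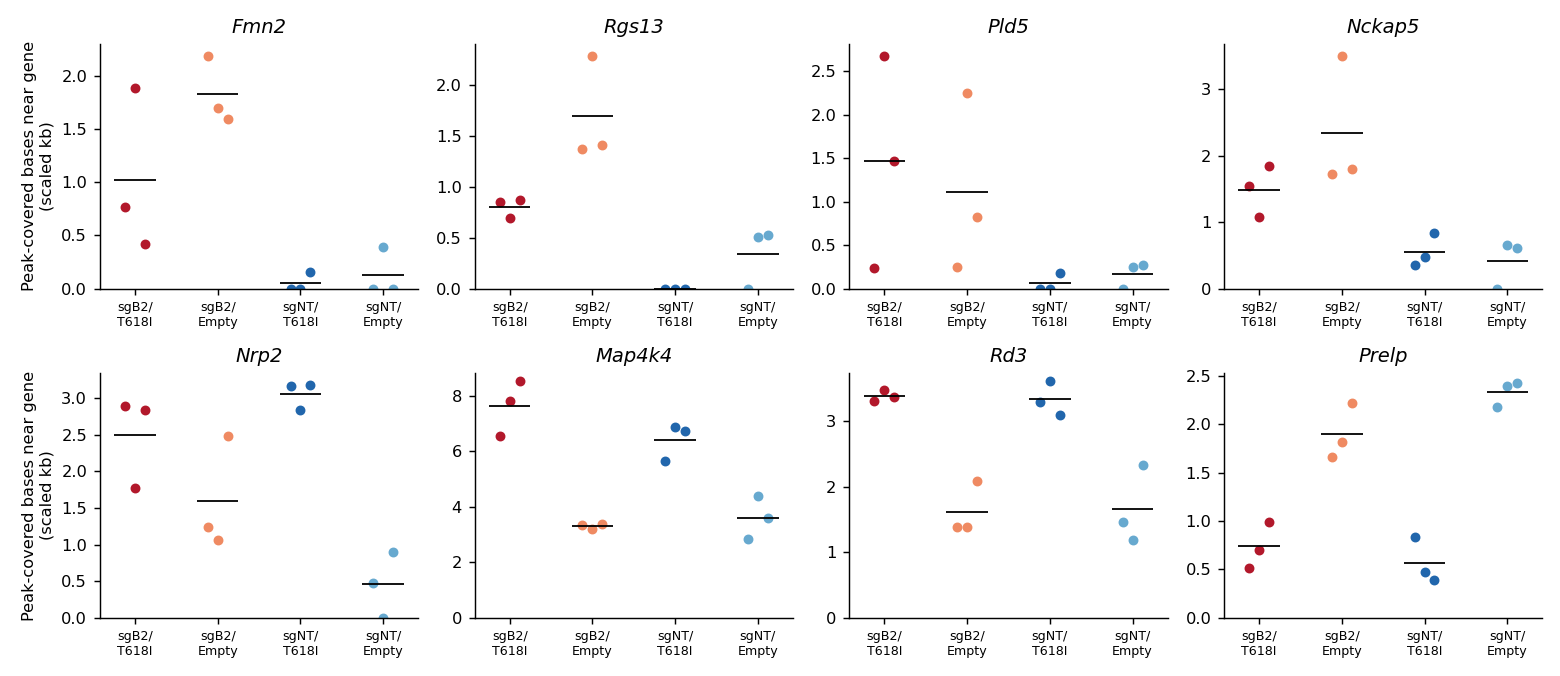
Peak-covered bases (scaled kb) in the gene and 50 kb to each side, for 4 genes that rose with sgB2 (top) and 4 that changed with T618I (bottom); points are libraries and bars means of 3. Fmn2 and Rgs13 are higher in every sgB2 library than in any sgNT library, and Map4k4 and Prelp part by vector in both guides.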

How the data were processed

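Peaks were called by the authors in each library with MACS2 2.2.7.1, after alignment to mm10 with BWA 0.7.17, per the submitters' processing notes, which also name SAMtools 1.9, bedtools 2.30 and deepTools 3.5. The deposited broad peak lists give a score, a fold enrichment ratio, a −log10 p and a −log10 q per peak. The deposited score and fold were not used, and the −log10 p and −log10 q were used for ranks and thresholds inside 1 list alone, since they depend on depth, which is unknown. The members, gene lists and tests were chosen with earlier results of these data known.

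Peaks of chromosomes 1 to 19 and X were merged at 1 bp overlap. Library shares were compared by exact two-sided permutation tests within vectors. Bins with a mean of at least 10 peaks (log2 of the percent + 0.01), regions in all 12 libraries (strength percentile, log2 width minus the library median) and genes (bases in the gene and 50 kb on each side, scaled, + 500; mean of at least 500 bp) were fitted with limma 3.58.1 in R 4.3.3 (trend, 4 groups, 8 residual degrees of freedom), each over the whole genome with Benjamini-Hochberg adjustment per comparison and a threshold of 0.05. "Rose" and "fell" mean calls in that fit. Gene positions came from the RefSeq GRCm38.p6 table, protein-coding, leaving out genes listed as starting below 3 Mb; that table has no strand, so distances are to either gene end. Promoter sequences are RefSeq's. Listed were bins and regions in all 12 libraries with the smallest p (up to 4 per direction), gained or lost regions with the highest mean rank (up to 6), genes with the largest change (up to 8, 1 per group of overlapping windows) and up to 4 members of each gene list. Alternatives were stricter peaks (−log10 q of at least 3), lists of equal length, other windows, filters, pseudocounts and scalings, each library left out and the replicate number as a block. Centring or scaling each chromosome on its own was added after seeing the data. Python 3.11.15, numpy 2.4.6, pandas 2.3.3, scipy 1.17.1 and matplotlib 3.10.9 were used, and the procedures were tested on simulated data. Results for some genes are not reported here.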

Additional observations from a re-analysis of the deposited data

Results flagged for a closer look

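The strength of the chromosome 1 region in Acadl (chr1:66841742-66842410) was listed because the T618I change in sgB2 cells minus the T618I change in sgNT cells was 65.8 percentile points, with an adjusted p of 0.0384 for that difference in limma. Of the 875 regions tested on chromosome 1 it was the single one with such a call.

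Unplaced contigs assigned to chromosome 1 were not used in the comparisons, and they held 0.189 ± 0.0636% of peaks with sgB2 and 0.103 ± 0.0267% with sgNT (SD, n = 6 each). In numbers these were 49.3 and 27.7 peaks per library in the same order, with overlapping groups, whereas the other contigs held 102.5 peaks with sgB2 and 103.7 with sgNT.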

How the results depend on the processing

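The share of chromosome 1 with sgB2 and its 20 called bins kept their direction and call under every alternative run, except that 2 bins stood higher with each chromosome centred on its own median. The difference in share ran between 2.93 and 3.35 points when 1 library was left out. For T618I it ran between 0.0434 and 0.185 points in sgNT cells and between −0.709 and 0.132 in sgB2 cells, where it also turned to 0.0289 on lists of equal length. On such lists 2 bins (sgNT) and 1 bin (sgB2) passed for T618I. Leaving out 1 library gave 20 bins with sgB2 and 0 for T618I in both guides, 199 to 287 strength calls with sgB2, 25 to 59 for T618I in sgNT cells and 54 to 111 in sgB2 cells, and 0 to 4, 1 to 7 and 2 to 13 width calls in that order. It gave 86 to 164 genes with sgB2, 7 to 20 for T618I in sgNT cells and 2 to 20 in sgB2 cells, and 13 to 18, 121 to 171 and 210 to 277 gained or lost regions. The balance of higher and lower calls turned in 5 such settings, with 6 and 5 width calls, 5 and 7 genes and 171 regions. For sgB2 the gene count of 154 was 33 with windows of 10 kb, 5 without scaling, 43 with stricter peaks, 84 on lists of equal length and 33 (14 higher, 19 lower) with each chromosome scaled to its own total. Gene counts for T618I in sgNT cells were 2, 4 and 35 with windows of 10 kb, no scaling and equal lists, and in sgB2 cells 0, 21 and 22 with no scaling, stricter peaks and equal lists. Width calls without centring were 1, 3 and 5. Gained or lost regions with sgB2 were 6 with stricter peaks and 7 with 50% cover, and for T618I in sgB2 cells 100 with stricter peaks. The cause of these moves was not tested. On the chromosome's own scale Fcrlb (−0.000880), Idh1 (−0.035) and Klf7 (−0.063) turned sign. Of 54 gene calls named by the rule, 5 were kept in all 18 to 21 settings in which the gene was tested, and for 1 of these 5, Nrp2, that was all 21 settings.

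Replicate numbers did not pair the libraries: 4 of 18 same-numbered pairs had a correlation over 0.1 (median 0.00859), and 6 of 12 libraries correlated best with their own number. With the replicate block the share difference was 3.16 (exact permutation p = 0.03125), 20 bins rose, strength calls were 258, 47 and 86, width calls 0, 3 and 4, and gene calls 158, 17 and 12 for sgB2, T618I in sgNT cells and T618I in sgB2 cells. Peak lists carry no depth, so weak regions missing from a library cannot be told from regions below its threshold.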
